A study of Homo sapiens with 12 samples.

Results

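The genes described here are the ligands and receptors of the tumour necrosis factor (TNF) superfamilies, measured by poly-A selected bulk RNA sequencing of N/TERT-2G, an immortalised line of keratinocytes from human skin. Members were taken by name from the protein-coding genes of the count table: every symbol that begins with TNFSF or TNFRSF, and TNF, LTA, LTB, CD40, CD70, CD27, NGFR, EDAR, LTBR and RELT. The rule found 43 of 58735 genes, 16 ligands and 27 receptors, and 27 of them passed the filter on low counts (10 ligands and 17 receptors, of 14920 genes tested). The cells were transfected at partial confluency with 100 pmol of siRNA per well of a 6-well plate and a lipid reagent, and the medium was changed after 6 h. Each group holds 3 libraries: ATF3 siRNA, APOE siRNA, CXCL14 siRNA and a negative control siRNA. ATF3 is a stress-induced transcription factor of the ATF/CREB family, APOE a lipid-carrying apolipoprotein and CXCL14 a chemokine made by epithelia. All groups share the single cell line, the reagent and the medium. The labels do not say that the 3 libraries of a group came from separate cultures, so p-values measure only the spread between these libraries, which may be technical.

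TNF superfamily ligands are mostly trimeric membrane proteins, some of which are released by proteases, and they act on receptors that cluster on binding. Receptors with a cytoplasmic death domain can recruit adaptors that activate caspases, while most receptors recruit TRAF proteins that activate NF-kB and stress kinases, and decoy receptors bind a ligand without a full signalling domain. In skin, TNF drives cytokine production by keratinocytes, TNFSF10 (TRAIL) can trigger their death, and EDAR directs the development of hair follicles and sweat glands.

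The libraries held 16225691 to 22246755 counts each, and 3 counts, the most that a count of 0 allows, equal 0.136 to 0.191 CPM, counts scaled to a common library size with the TMM factors of edgeR. ATF3 was 11.5 to 12.5 CPM with ATF3 siRNA, against 40.5 to 43.0 CPM with control siRNA. APOE was 0.106 to 0.274 CPM with APOE siRNA, against 2.78 to 3.59 CPM with control siRNA. CXCL14 had 2 counts in all with CXCL14 siRNA, against 24 with control siRNA. APOE siRNA libraries held 4.27 to 12.3 CPM of CXCL14, against 0.365 to 0.682 CPM with control siRNA. CXCL14 siRNA libraries held 64.1 to 71.6 CPM of ATF3 and 5.48 to 6.37 CPM of APOE, both above the control libraries. ATF3 siRNA libraries overlapped the control in APOE and CXCL14, and APOE siRNA libraries overlapped it in ATF3. All 6 keratinocyte markers were present. Their summed level was 33400 to 35600 CPM with ATF3 siRNA, 41000 to 44000 with APOE siRNA and 18800 to 19400 with CXCL14 siRNA, against 27500 to 30900 with control siRNA. Of 10 immune markers, PTPRC, CD3E, MS4A1 and LYZ were at 0 in every library, and the sum was 6.44 CPM at most. The fibroblast markers summed to 74.3 to 87.9 CPM with APOE siRNA, against 25.4 to 34.2 CPM with control siRNA. Of the 7 fibroblast markers COL1A1 alone passed 1 CPM in any library. The part of the keratinocyte and fibroblast marker shifts in the results was not tested.

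Levels of different genes were compared in the deposited FPKM, which are scaled to gene length and library depth. In control siRNA libraries the 27 receptors summed to 437 to 468 FPKM and the 16 ligands to 30.5 to 33.9 FPKM. TNFRSF12A (Fn14, the receptor of TWEAK) had the highest level, 170 ± 8.66 FPKM with control siRNA (SD, n = 3), 37.3% of the receptor sum. It was followed by TNFRSF21 at 73.7 ± 3.61, TNFRSF10B at 66.1 ± 1.59, TNFRSF1A at 51.4 ± 2.03, LTBR at 42.6 ± 3.04 and TNFRSF10A at 22.4 ± 0.54 FPKM, and the control libraries of neighbours in this order did not overlap. The next 4, TNFSF10 at 13 ± 2.6, TNFSF9 at 10.4 ± 0.697, TNFRSF25 at 9.97 ± 0.958 and TNFRSF10D at 8.56 ± 0.615 FPKM, each overlapped the next. TNF stood at 5.67 ± 1.54, RELT at 3.52 ± 0.0811, CD40 at 2.96 ± 0.455, TNFRSF14 at 2.14 ± 0.23 and NGFR at 1.12 ± 0.446 FPKM. All remaining members were under 1 FPKM on average. The makeup of the ligand sum differed between groups: TNFSF9 took 41.1% with ATF3 siRNA, 45.1% with APOE siRNA and 75.1% with CXCL14 siRNA, against 32.3% with control siRNA. The sum itself was 36.1 to 39.3 FPKM with ATF3 siRNA, 41.2 to 49.8 with APOE siRNA and 65.1 to 79.7 with CXCL14 siRNA, above the 30.5 to 33.9 of the control libraries.

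**Figure D1:**
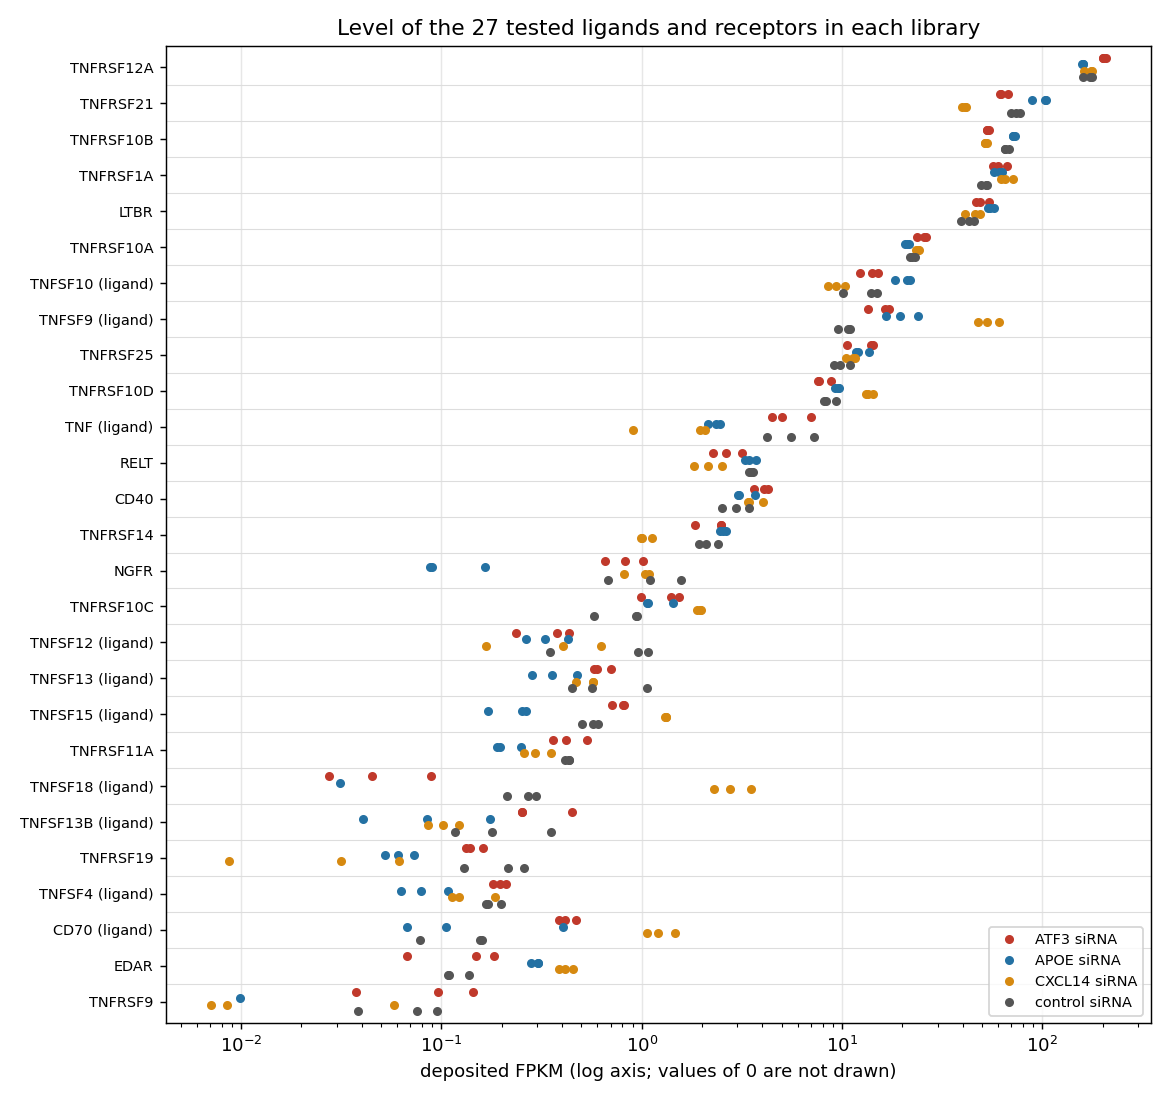
Deposited FPKM (log axis) of the 27 tested members in each of the 12 libraries, in the order of their mean level with control siRNA; points are libraries, coloured by siRNA, and values of 0 are not drawn. TNFRSF12A heads the order at 159 to 203 FPKM on average, and TNFSF9 and TNFSF18 with CXCL14 siRNA lie far to the right of their other groups.

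The ligand TNFSF9 and the TNF receptor TNFRSF1A rose with each of the 3 targeting siRNAs. TNF fell with APOE and CXCL14 siRNA, TNFSF15 and TNFSF18 fell with APOE siRNA and rose with CXCL14 siRNA, and NGFR fell with APOE siRNA. A member was called where the quasi-likelihood test of edgeR gave an adjusted p under 0.05, with no limit on fold. With ATF3 siRNA 9 of the 27 tested members rose and 3 fell, where 11.2% of all tested genes rose and 9.14% fell. The count of 12 dropped to 4 without control library 2, to 6 without control library 1 or ATF3 siRNA library 2, and to 7 without ATF3 siRNA library 3. With APOE siRNA 8 members rose and 10 fell, where 22.3% of all tested genes rose and 22.5% fell. With CXCL14 siRNA 8 members rose and 8 fell, where 27.4% of all tested genes rose and 28.4% fell. The share of tested members called was 44.4% with ATF3 siRNA, 66.7% with APOE siRNA and 59.3% with CXCL14 siRNA, beside 20.4%, 44.8% and 55.8% of all tested genes. The median log2 fold change of the members was 0.14, 0.00 and -0.18 in these comparisons, beside 0.00, 0.01 and 0.01 over all tested genes. Of the 10 tested ligands 3 rose and 1 fell with ATF3 siRNA, 2 rose and 6 fell with APOE siRNA and 4 rose and 2 fell with CXCL14 siRNA. Of the 17 tested receptors 6 rose and 2 fell, 6 rose and 4 fell, and 4 rose and 6 fell with the same siRNAs. All 3 comparisons use the same control libraries. Called in all of them were 5 members (TNFSF9, TNFSF15, TNFSF18, TNFRSF10B and TNFRSF1A), 10 were called in 2 and 11 in 1, and TNFSF13B alone was called in none. Of all tested genes 10.4% were called in 3 comparisons and 27.5% in none. The filter needs a minimum level in at least 3 of the 12 libraries, whatever their group. Of the 27 tested members 9 (TNFSF18, CD70, TNFSF4, TNFSF12, TNFSF13B, NGFR, EDAR, TNFRSF19 and TNFRSF9) reached that level in only some of the 12 libraries. The counts of called members thus describe the members that passed and not all 43.

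**Figure D2:**
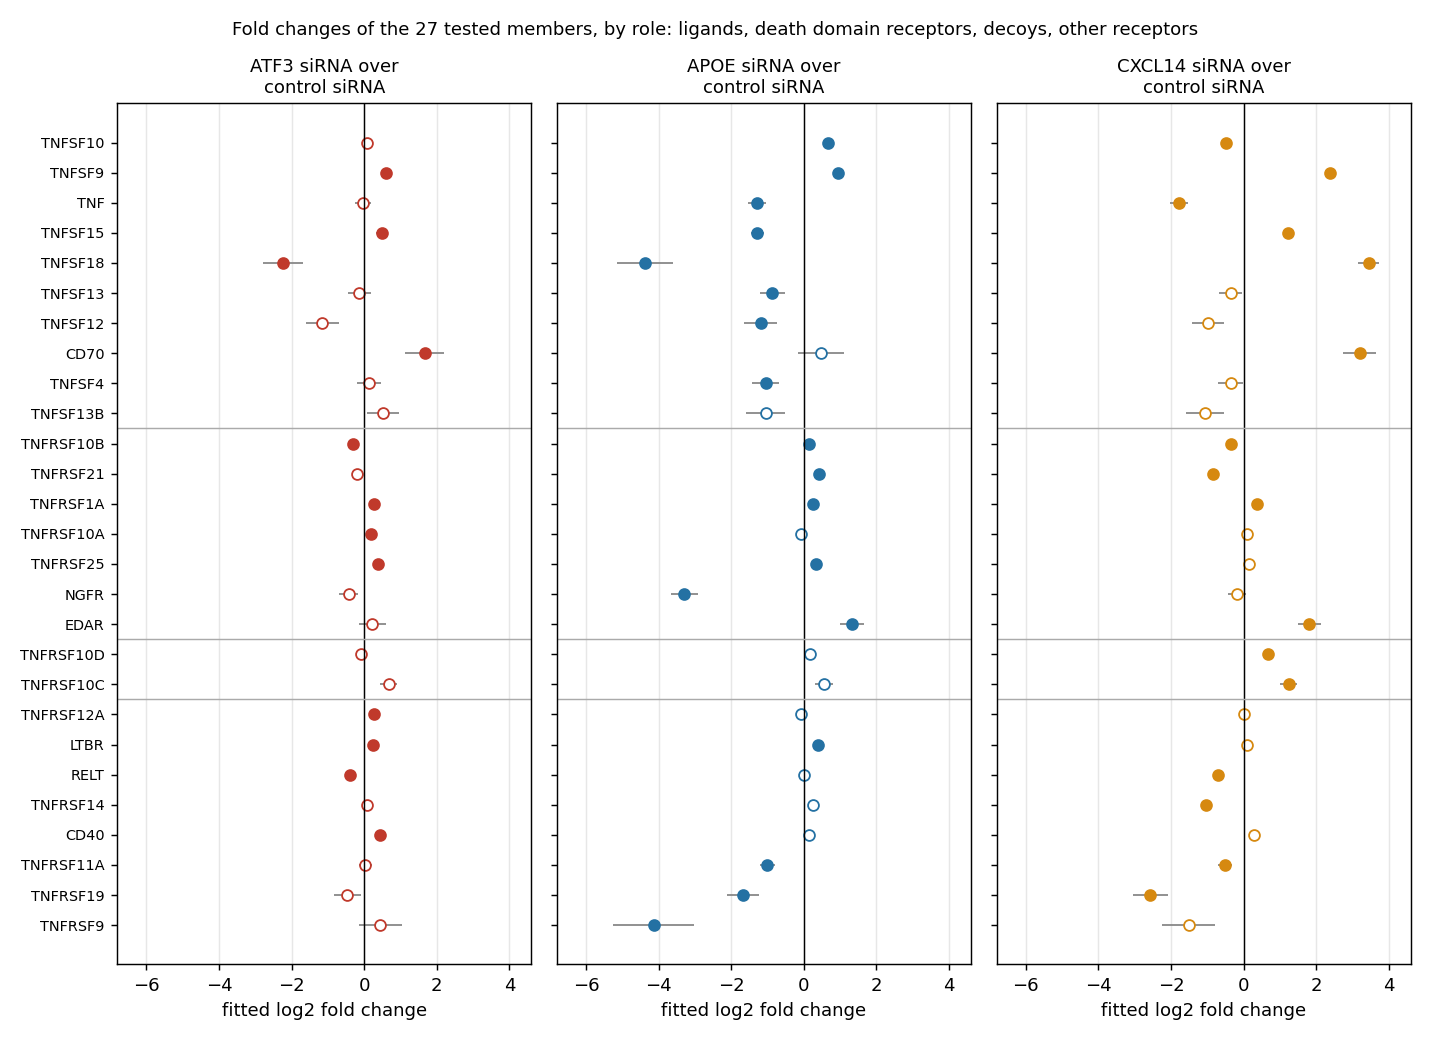
Fitted log2 fold change of each tested member for ATF3, APOE and CXCL14 siRNA over control siRNA (x axes), with members grouped by role down the page; filled points were called at an adjusted p under 0.05 in edgeR, open points were not, and bars are the SE. TNFSF9 and TNFRSF1A lie right of 0 in all panels, and TNFSF18 lies left of 0 with ATF3 and APOE siRNA and right of 0 with CXCL14 siRNA.

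Promoter windows are shown for TNFSF9, TNFSF15, TNFSF18 and TNFRSF1A, members called in all 3 comparisons with the control. They run 5′ to 3′ on the strand of the gene, from 250 bases before to 50 bases after the RefSeq start in GRCh38.p14, and capitals mark a match to the AP-1 motif. The windows are chr19:6530776-6531075 (plus strand), chr9:114792481-114792780 (minus), chr1:173050892-173051191 (minus) and chr12:6342027-6342326 (minus). The RefSeq starts of TNFSF9, TNFSF18 and TNFRSF1A lie 27, 22 and 38 bases from the gene start in the count table, whereas that of TNFSF15 lies 13596 bases inside the gene as the table gives it.
TNFSF9: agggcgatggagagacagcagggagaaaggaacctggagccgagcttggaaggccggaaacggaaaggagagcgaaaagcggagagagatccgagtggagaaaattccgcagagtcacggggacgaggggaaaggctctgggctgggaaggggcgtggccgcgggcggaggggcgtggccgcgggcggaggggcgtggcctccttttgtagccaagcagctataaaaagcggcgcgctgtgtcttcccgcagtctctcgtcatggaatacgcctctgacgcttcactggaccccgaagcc
TNFSF15: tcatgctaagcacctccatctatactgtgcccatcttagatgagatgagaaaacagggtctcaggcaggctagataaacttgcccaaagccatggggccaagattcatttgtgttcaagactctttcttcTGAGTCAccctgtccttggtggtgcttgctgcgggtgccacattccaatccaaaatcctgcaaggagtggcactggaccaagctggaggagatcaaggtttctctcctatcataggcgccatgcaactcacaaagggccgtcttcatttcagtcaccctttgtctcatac
TNFSF18: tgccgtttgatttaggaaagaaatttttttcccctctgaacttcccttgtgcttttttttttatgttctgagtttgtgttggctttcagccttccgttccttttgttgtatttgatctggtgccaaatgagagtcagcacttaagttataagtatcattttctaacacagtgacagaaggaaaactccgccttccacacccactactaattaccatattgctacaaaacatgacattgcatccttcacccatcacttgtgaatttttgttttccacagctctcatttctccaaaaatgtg
TNFRSF1A: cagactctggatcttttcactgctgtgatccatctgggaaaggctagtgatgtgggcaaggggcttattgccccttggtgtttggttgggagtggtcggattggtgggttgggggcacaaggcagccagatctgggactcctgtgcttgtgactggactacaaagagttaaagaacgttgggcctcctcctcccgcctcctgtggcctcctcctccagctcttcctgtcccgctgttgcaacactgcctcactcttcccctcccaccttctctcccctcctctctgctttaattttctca

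The windows were searched on both strands for TGANTCA (AP-1, which ATF3 can bind as a dimer with JUN proteins), TGACGTCA (the cAMP response element, bound by ATF and CREB factors) and GGNNTTTCC (a short form of the NF-kB motif). Of 35116 RefSeq promoters of the same length, 7.71% hold the first, 1.85% the second and 6.26% the third. Windows were found for 27 of the 43 members and 17 of the 27 tested ones. Among these 17 the AP-1 letters stand in 2, TNFSF15 and TNFRSF9, the cAMP response element in 0 and the NF-kB form in 1, TNFRSF9, with no overlap between the matches. In TNFSF15 the match begins 120 bases before the RefSeq start. A match describes letters only and says nothing of binding.

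The 4 of the 10 tested ligands that rose with CXCL14 siRNA were TNFSF9, CD70, TNFSF18 and TNFSF15. Values are CPM in libraries 1, 2 and 3 of a group, and changes are log2 fold changes of the fit with their SE (3 libraries per group) and the adjusted p of edgeR. TNFSF9, the ligand of the T cell costimulator CD137, stood at 22.9, 27.6 and 29 with ATF3 siRNA, 28.1, 33.2 and 40.7 with APOE siRNA, while CXCL14 siRNA libraries held 80.1, 89 and 103, against 18, 18.3 and 16.2 with control siRNA. Every library of the 3 targeting siRNAs lay above every control library, and the CXCL14 siRNA libraries lay far above the rest. TNFSF9 rose by 0.59 ± 0.134 with ATF3 siRNA (adjusted p 0.00524), by 0.95 ± 0.133 with APOE siRNA (2.28e-05) and by 2.37 ± 0.13 with CXCL14 siRNA (3.5e-10, edgeR), and these calls held with any 1 library left out. CD70, the ligand of CD27, lies 47254 bases from TNFSF9 on chromosome 19. It had 0.645, 0.731 and 0.605 CPM with ATF3 siRNA, 0.106, 0.164 and 0.638 with APOE siRNA, while CXCL14 siRNA gave 1.63, 2.29 and 1.85, against 0.242, 0.122 and 0.248 with control siRNA. Libraries of ATF3 and CXCL14 siRNA lay above the control libraries without overlap, while 1 APOE siRNA library lay above and the other two below the highest control. CD70 rose by 3.20 ± 0.464 with CXCL14 siRNA (adjusted p 2.13e-05, edgeR) and by 1.66 ± 0.542 with ATF3 siRNA (0.0401), but the rise with ATF3 siRNA rests on 37 counts against 10 and missed the threshold without any single one of its 6 libraries (adjusted p 0.0641 to 0.144). With APOE siRNA the difference was 0.48 ± 0.638 (adjusted p 0.573). CD70 reached the filter level in 3 libraries each of ATF3 and CXCL14 siRNA, 1 of APOE siRNA and 0 of control siRNA. It was thus tested only through the groups where it was high, which limits the weight of both rises.

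TNFSF18, the ligand of the receptor GITR on T cells, was the member with the widest spread between groups. It had 0.0921, 0.0562 and 0.181 CPM with ATF3 siRNA, 0, 0 and 0.0638 with APOE siRNA, while CXCL14 siRNA libraries held 5.59, 4.69 and 7.14, against 0.605, 0.547 and 0.434 with control siRNA. The 4 groups took separate ranges except that ATF3 and APOE siRNA overlapped, and both lay at or near the counting limit. The rise with CXCL14 siRNA was 3.44 ± 0.291 (350 counts against 26, adjusted p 4.84e-08, edgeR). With ATF3 siRNA 6 counts stood against 26 in the control, a depth-adjusted ratio of 0.202 (95% exact interval 0.0681 to 0.503, counting error only), and the fall was called at an adjusted p of 0.009 in edgeR. With APOE siRNA 1 count stood against 26, a ratio of 0.0357 (0.000871 to 0.217), called at an adjusted p of 0.000215 in edgeR. TNFSF18 reached the filter level in 3 libraries of CXCL14 siRNA, 1 of control siRNA and 0 of ATF3 and APOE siRNA. It was thus tested only through the group where it was high, which limits the weight of these calls. TNFSF15 (TL1A), which binds TNFRSF25, had 6.59, 6.47 and 5.75 CPM with ATF3 siRNA, 1.37, 2.14 and 2.04 with APOE siRNA, while CXCL14 siRNA gave 10.4, 10.6 and 10.5, against 4.84, 4.01 and 4.59 with control siRNA. No group overlapped another. TNFSF15 fell by 1.28 on the log2 scale with APOE siRNA (SE 0.173, adjusted p 1.74e-05, edgeR) and rose by 1.23 ± 0.141 with CXCL14 siRNA (1.65e-06). Its rise of 0.49 ± 0.147 with ATF3 siRNA (adjusted p 0.0279) missed the threshold without ATF3 siRNA library 1 (0.0803) or 2 (0.0768) or control library 2 (0.115) or 3 (0.0587), and with no filter (0.0618).

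In the CXCL14 siRNA libraries, where TNFSF9, TNFSF18, CD70 and TNFSF15 were highest, the immune markers summed to 1.31 to 1.53 CPM, against 2.3 to 3.35 CPM with control siRNA. Most of that sum was CD14, a monocyte marker, at 1.19 CPM on average with CXCL14 siRNA, against 2.28 CPM with control siRNA. The melanocyte markers summed to 6.42 to 6.65 CPM there, against 3.32 to 4.13 CPM with control siRNA, and the endothelial ones to 1.37 to 1.76 CPM, against 0.486 to 0.744 CPM. Most of the melanocyte difference was MITF, at 4.46 CPM on average against 1.93 CPM. PMEL averaged 1.45 against 1.12 CPM and MLANA 0.575 against 0.55 CPM, and TYR was at 0 in every library. Most of the endothelial sum was KDR, at 1.31 CPM on average against 0.326 CPM. The part of these markers in the results was not tested. In bulk samples, more cells that express a gene and more RNA of it per cell cannot be told apart.

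**Figure D3:**
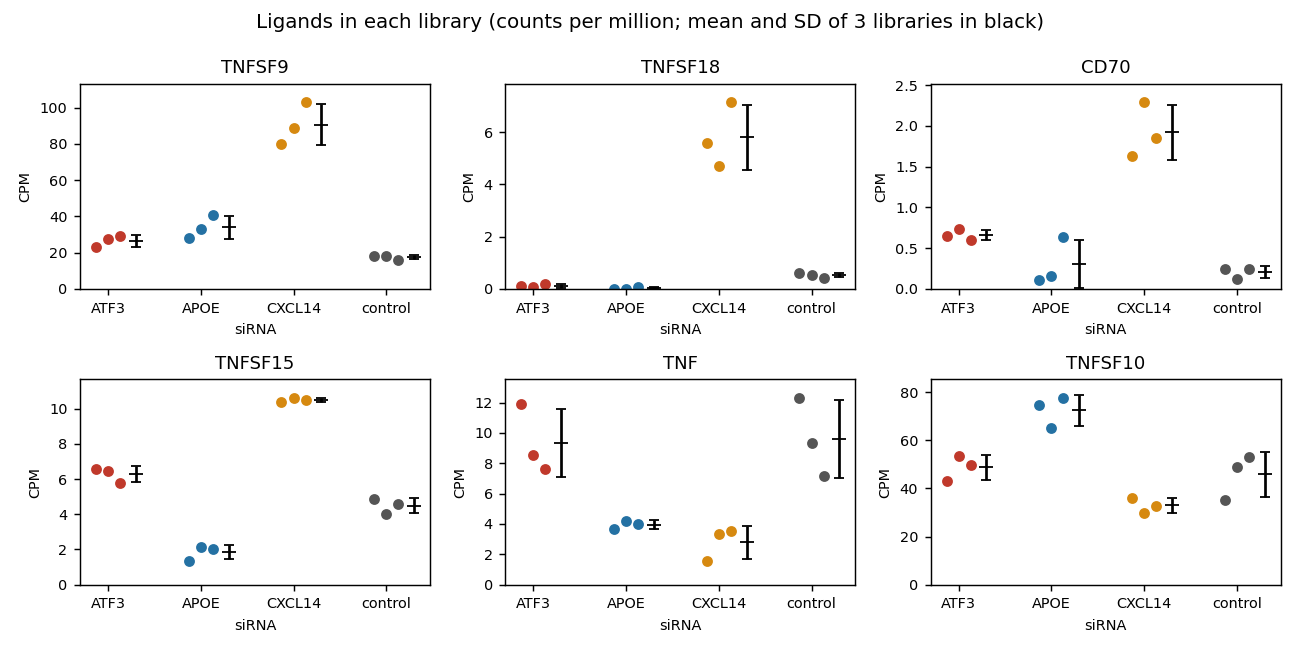
CPM of 6 ligands in each library (y axes start at 0) for ATF3, APOE and CXCL14 siRNA and, at the right of each panel, control siRNA; coloured points are libraries 1 to 3 and the black mark with its bar is their mean and SD. TNFSF9 reaches 80.1 to 103 CPM with CXCL14 siRNA, and TNF is 1.53 to 4.22 CPM with APOE or CXCL14 siRNA, below every control library.

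TNF and TNFSF10, which can trigger inflammation and death of keratinocytes, both fell with CXCL14 siRNA, and with APOE siRNA TNF fell while TNFSF10 rose. TNF had 11.9, 8.55 and 7.62 CPM with ATF3 siRNA, 3.64, 4.22 and 4.02 with APOE siRNA, while CXCL14 siRNA libraries held 1.53, 3.32 and 3.53, against 12.3, 9.36 and 7.19 with control siRNA. All libraries of APOE and CXCL14 siRNA lay below all control libraries, and those of ATF3 siRNA lay among them. TNF fell by 1.28 with APOE siRNA (SE 0.252, adjusted p 0.0006) and by 1.77 with CXCL14 siRNA (SE 0.259, adjusted p 2.27e-05, edgeR), and the difference with ATF3 siRNA was -0.03 ± 0.229 (adjusted p 0.94). TNFSF10 had 43.3, 53.6 and 49.8 CPM with ATF3 siRNA, 74.5, 65.2 and 77.6 with APOE siRNA, while CXCL14 siRNA gave 36, 30 and 32.9, against 35.4, 49 and 53.2 with control siRNA. The APOE siRNA libraries lay above the control, while 1 CXCL14 siRNA library overlapped control library 1. TNFSF10 rose by 0.66 ± 0.124 with APOE siRNA (adjusted p 0.000425) and fell by 0.48 with CXCL14 siRNA (SE 0.127, adjusted p 0.00466, edgeR).

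The other ligands were low. TNFSF4, the ligand of OX40 and the neighbour of TNFSF18 on chromosome 1 (132770 bases away), had 0.783, 0.843 and 0.726 CPM with ATF3 siRNA, 0.317, 0.438 and 0.255 with APOE siRNA, while CXCL14 siRNA libraries held 0.738, 0.49 and 0.452, against 0.665, 0.79 and 0.682 with control siRNA. It fell by 1.05 with APOE siRNA (SE 0.379, adjusted p 0.0324, edgeR), with 18 counts against 35 and no overlap, and missed the threshold when APOE siRNA library 1 (0.0921) or 3 (0.108) or control library 1 (0.0578), 2 (0.0942) or 3 (0.057) was left out, with no filter (0.126) and in the Wald test of DESeq2 (0.0992). TNFSF4 reached the filter level in 3 libraries each of ATF3 and control siRNA, 1 of CXCL14 siRNA and 0 of APOE siRNA. It was thus tested only through groups where it was higher, which limits the weight of this call. TNFSF12 (TWEAK, the ligand of TNFRSF12A) had 0.829, 0.45 and 0.726 CPM with ATF3 siRNA, 0.633, 0.821 and 0.51 with APOE siRNA, while CXCL14 siRNA gave 0.316, 1.2 and 0.769, against 0.665, 1.82 and 2.05 with control siRNA. Control library 1 overlapped every other group. The fall of TNFSF12 by 1.19 with APOE siRNA (SE 0.459, adjusted p 0.0458, edgeR) missed the threshold without APOE siRNA library 1 (0.105), 2 (0.0592) or 3 (0.12) or control library 2 (0.143) or 3 (0.172), and in limma-voom (0.103). Its differences of -1.15 ± 0.453 with ATF3 siRNA (adjusted p 0.0853) and -0.99 ± 0.441 with CXCL14 siRNA (0.0686) passed without control library 1 (0.0286 and 0.0131), and the second also without CXCL14 siRNA library 2 (0.0262).

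TNFSF13 (APRIL, which acts on B cells) had 1.34, 1.63 and 1.39 CPM with ATF3 siRNA, 1.11, 0.657 and 0.829 with APOE siRNA, while CXCL14 siRNA libraries held 1.32, 1.09 and 1.31, against 1.03, 2.43 and 1.3 with control siRNA. Control library 2 was far above the other two, and the control overlapped each of the other groups. The fall of TNFSF13 by 0.87 with APOE siRNA (SE 0.335, adjusted p 0.0454, edgeR) shrank to -0.42 (0.337) without control library 2, and also missed the threshold without APOE siRNA library 2 (0.153) or 3 (0.0938), with the replicate block (0.0525), in the Wald test of DESeq2 (0.0576), in limma-voom (0.075) and with only the groups compared (0.078). TNFSF12 and TNFSF13 overlap the readthrough gene TNFSF12-TNFSF13 on the same strand by 8792 and 3310 bases, and that gene has 0 counts in all libraries, so that the values of this locus are uncertain. TNFSF13B (BAFF, a B cell survival factor) averaged 0.987 CPM with ATF3 siRNA, 0.313 with APOE siRNA and 0.32 with CXCL14 siRNA, against 0.672 with control siRNA, and was not called in these comparisons (adjusted p 0.44, 0.122 and 0.0978). It passed without APOE siRNA library 2 (0.0439, APOE siRNA) and without control library 1 (0.0469, CXCL14 siRNA).

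Among receptors with a death domain, all 7 members were tested. TNFRSF1A, the main TNF receptor of keratinocytes, had 231, 245 and 273 CPM with ATF3 siRNA, 234, 248 and 259 with APOE siRNA, while CXCL14 siRNA gave 252, 263 and 289, against 199, 211 and 216 with control siRNA. The 9 libraries of the targeting siRNAs all lay above the 3 control libraries, and the targeting groups overlapped each other. TNFRSF1A rose by 0.26 ± 0.0738 with ATF3 siRNA (adjusted p 0.0209), 0.24 ± 0.0738 with APOE siRNA (0.0133) and 0.36 ± 0.0737 with CXCL14 siRNA (0.000546, edgeR). The call with ATF3 siRNA was lost without ATF3 siRNA library 3 (0.0919) or control library 1 (0.0911) or 2 (0.0589), and that with APOE siRNA without APOE siRNA library 3 (0.0585) or control library 1 (0.0596). TNFRSF21 (DR6), the second most abundant receptor in control cells, had 228, 226 and 248 CPM with ATF3 siRNA, 380, 328 and 378 with APOE siRNA, while CXCL14 siRNA libraries held 144, 152 and 150, against 254, 270 and 282 with control siRNA. No group overlapped another. TNFRSF21 rose by 0.43 ± 0.0688 with APOE siRNA (adjusted p 9.01e-05) and fell by 0.85 with CXCL14 siRNA (SE 0.0696, adjusted p 3.22e-08, edgeR). Its difference of -0.20 ± 0.0689 with ATF3 siRNA (adjusted p 0.0534) lay beside the threshold. It passed in 8 of 14 alternatives: with library size alone (0.0137), DESeq2 size factors (0.0402), no filter (0.0418), the stricter filter (0.0277), the replicate block (0.0177), the Wald test of DESeq2 (0.0265), limma-voom (0.0488) and without ATF3 siRNA library 3 (0.0354).

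The TRAIL receptors TNFRSF10A and TNFRSF10B can start caspase activation when TNFSF10 binds. TNFRSF10B had 285, 278 and 278 CPM with ATF3 siRNA, 375, 378 and 384 with APOE siRNA, while CXCL14 siRNA gave 269, 271 and 274, against 354, 339 and 343 with control siRNA. The groups did not overlap. TNFRSF10B fell by 0.30 with ATF3 siRNA (SE 0.0513, adjusted p 0.0007) and by 0.35 with CXCL14 siRNA (SE 0.0513, adjusted p 2.72e-05, edgeR). Its rise of 0.13 ± 0.0512 with APOE siRNA (adjusted p 0.0422) missed the threshold without APOE siRNA library 1 (0.0742), 2 (0.111) or 3 (0.134) or control library 2 (0.145) or 3 (0.132), and with library size alone (0.226), DESeq2 size factors (0.0639), no filter (0.379) or only the groups compared (0.0646). TNFRSF10A had 78.8, 71.5 and 77.2 CPM with ATF3 siRNA, 64.6, 63.7 and 62.7 with APOE siRNA, while CXCL14 siRNA libraries held 71.3, 69.7 and 72.2, against 65.4, 68.6 and 66.9 with control siRNA. All ATF3 siRNA libraries lay above the control, and so did those of CXCL14 siRNA, though less. The rise of 0.18 ± 0.0594 with ATF3 siRNA (adjusted p 0.0425, edgeR) missed the threshold when ATF3 siRNA library 1 (0.145) or 3 (0.0972) or control library 1 (0.138), 2 (0.0793) or 3 (0.107) was left out. It also did so with library size alone (0.107), DESeq2 size factors (0.0547), no filter (0.278), the Wald test of DESeq2 (0.0631) and only the groups compared (0.116).

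Both membrane decoys of TNFSF10, TNFRSF10D and TNFRSF10C, rose with CXCL14 siRNA. TNFRSF10D had 31.9, 27.5 and 27.8 CPM with ATF3 siRNA, 33.2, 35 and 34.8 with APOE siRNA, while CXCL14 siRNA gave 47, 51.3 and 48.1, against 33.1, 29.6 and 29.3 with control siRNA. TNFRSF10C had 1.89, 2.92 and 2.66 CPM with ATF3 siRNA, 2.06, 2.03 and 2.74 with APOE siRNA, while CXCL14 siRNA libraries held 3.74, 3.7 and 3.57, against 1.09, 1.76 and 1.8 with control siRNA. For both genes the CXCL14 siRNA libraries lay above all other libraries. TNFRSF10C overlaps the protein-coding gene AC107959.5 on the same strand by 12947 bases. That gene has 0 counts in all libraries, so the values of TNFRSF10C are uncertain. TNFRSF10D rose by 0.67 ± 0.0779 (adjusted p 2e-06) and TNFRSF10C by 1.24 ± 0.232 (adjusted p 0.000257) with CXCL14 siRNA in edgeR. TNFRSF10C differed by 0.67 ± 0.244 with ATF3 siRNA (adjusted p 0.063, and 0.0283 without ATF3 siRNA library 1) and by 0.55 ± 0.248 with APOE siRNA (0.0861), while TNFRSF10D differed by -0.08 ± 0.0798 (0.544) and 0.16 ± 0.0793 (0.111). Among the genes of the TRAIL system, TNFSF10 and TNFRSF10B fell and both decoys rose with CXCL14 siRNA, whereas the other signalling receptor, TNFRSF10A, differed by 0.09 (adjusted p 0.232, edgeR). With APOE siRNA TNFSF10 rose, TNFRSF10A differed by -0.07 (adjusted p 0.346), and the rise of TNFRSF10B was lost in 9 of 14 alternatives.

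TNFRSF25, the receptor of TNFSF15, had 46.3, 61.9 and 60.8 CPM with ATF3 siRNA, 52.5, 60.2 and 51.2 with APOE siRNA, while CXCL14 siRNA gave 45.3, 50.4 and 49.1, against 39.7, 42.1 and 48.1 with control siRNA. ATF3 siRNA library 1 overlapped the control, and the APOE siRNA libraries did not. TNFRSF25 rose by 0.38 ± 0.107 with ATF3 siRNA (adjusted p 0.0201) and 0.34 ± 0.107 with APOE siRNA (0.0172, edgeR). The first was lost without ATF3 siRNA library 2 (0.0971) or 3 (0.0738) or control library 1 (0.0948) or 2 (0.0738), and the second without APOE siRNA library 2 (0.0908) or control library 1 (0.0797) or 2 (0.0607). It overlaps by 104 bases PLEKHG5 on the same strand, which has 35532 counts in all, so its value is uncertain. NGFR, a neurotrophin receptor found on basal keratinocytes, had 2.76, 4.27 and 3.51 CPM with ATF3 siRNA, 0.369, 0.383 and 0.702 with APOE siRNA, while CXCL14 siRNA libraries held 4.38, 3.43 and 4.57, against 2.84, 4.62 and 6.63 with control siRNA. The APOE siRNA libraries stood far below all others, and the other groups overlapped. NGFR fell by 3.29 with APOE siRNA (SE 0.36, 25 counts against 230, adjusted p 1.9e-06, edgeR). EDAR had 0.829, 0.675 and 0.302 CPM with ATF3 siRNA, 1.37, 1.37 and 1.28 with APOE siRNA, while CXCL14 siRNA gave 1.85, 1.74 and 2.03, against 0.484, 0.486 and 0.62 with control siRNA. APOE and CXCL14 siRNA libraries lay above the control without overlap. EDAR rose by 1.33 ± 0.332 with APOE siRNA (adjusted p 0.00387) and 1.81 ± 0.315 with CXCL14 siRNA (0.00013, edgeR).

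**Figure D4:**
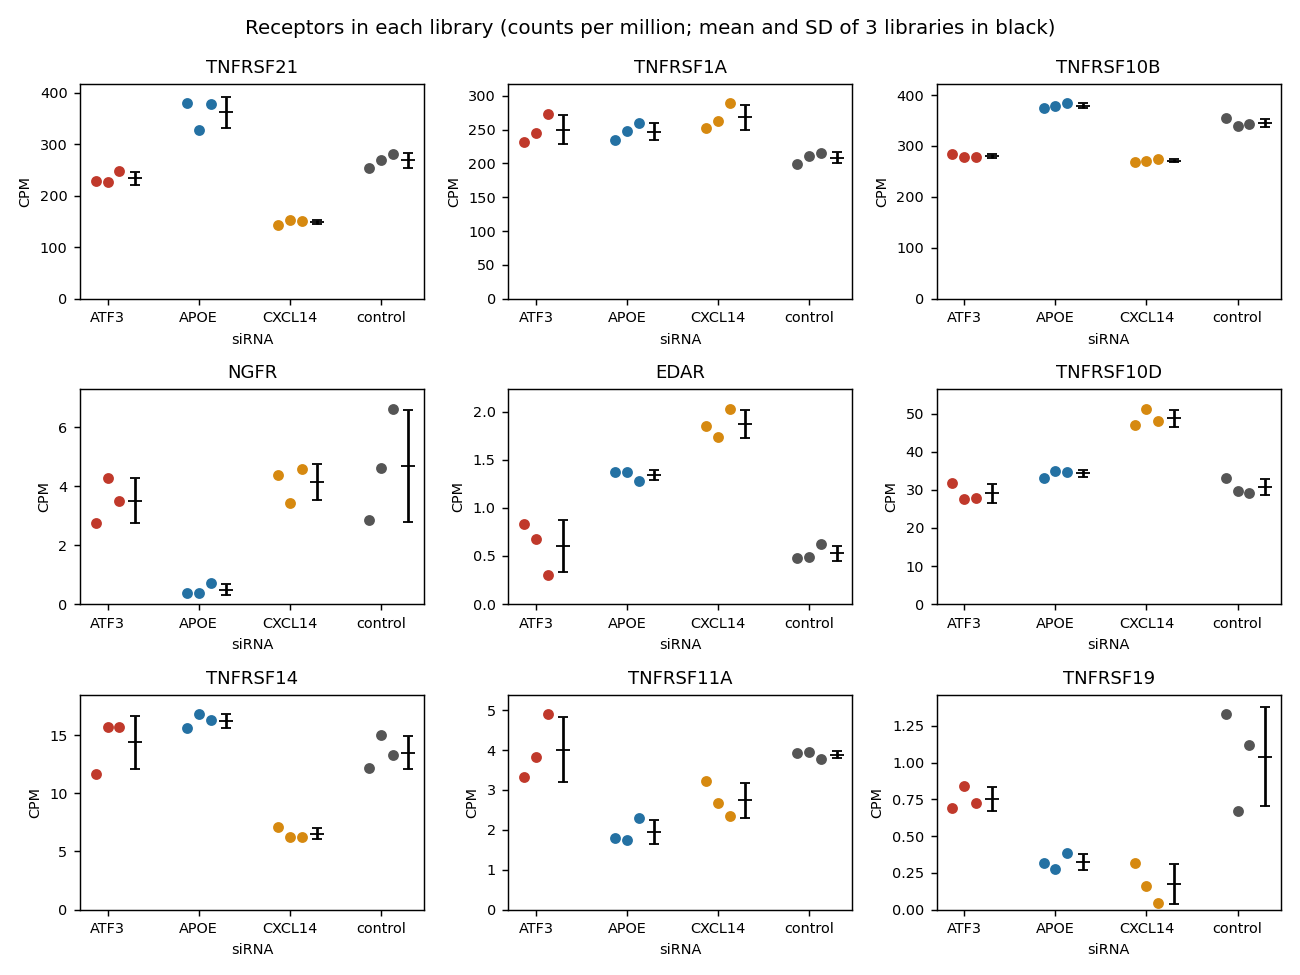
CPM of 9 receptors in each library (y axes start at 0) for ATF3, APOE and CXCL14 siRNA and, at the right of each panel, control siRNA; coloured points are libraries 1 to 3 and the black mark with its bar is their mean and SD. TNFRSF21 is 328 to 380 CPM with APOE siRNA and 144 to 152 CPM with CXCL14 siRNA, on either side of the control, and NGFR is lowest with APOE siRNA.

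Among receptors without a death domain, TNFRSF12A stood at 389, 380 and 378 CPM with ATF3 siRNA, 297, 303 and 304 with APOE siRNA, while CXCL14 siRNA libraries held 300, 327 and 330, against 299, 331 and 325 with control siRNA. Only the ATF3 siRNA libraries lay apart from the control. TNFRSF12A rose by 0.26 ± 0.0591 with ATF3 siRNA (adjusted p 0.00501, edgeR), in every fit with 1 library left out. LTBR, the lymphotoxin beta receptor, had 297, 313 and 347 CPM with ATF3 siRNA, 344, 353 and 368 with APOE siRNA, while CXCL14 siRNA gave 259, 294 and 310, against 250, 272 and 291 with control siRNA. Libraries of ATF3 and APOE siRNA lay above the control, those of ATF3 siRNA narrowly. LTBR rose by 0.39 ± 0.0791 with APOE siRNA (adjusted p 0.000819) and 0.23 ± 0.0791 with ATF3 siRNA (0.0462, edgeR), and the call with ATF3 siRNA was lost without ATF3 siRNA library 2 (0.0822) or 3 (0.177) or control library 1 (0.191) or 2 (0.112), with library size alone (0.0627) and with only the groups compared (0.0742). LTBR overlaps SCNN1A, on the opposite strand, by 2686 bases. No source used here says whether reads were assigned by strand, so reads of the pair cannot be told apart there.

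CD40, a costimulatory receptor, had 9.3, 11 and 10.5 CPM with ATF3 siRNA, 7.81, 7.94 and 9.51 with APOE siRNA, while CXCL14 siRNA libraries held 8.7, 8.77 and 10.3, against 6.41, 7.54 and 8.8 with control siRNA. The ATF3 siRNA libraries lay just above the control. Its rise of 0.43 ± 0.136 with ATF3 siRNA (adjusted p 0.0347, edgeR) was lost without ATF3 siRNA library 2 (0.116) or 3 (0.0797) or control library 1 (0.162) or 2 (0.0927), and with only the groups compared (0.0612). With CXCL14 siRNA CD40 differed by 0.29 ± 0.137 (adjusted p 0.0834, and 0.0301 without control library 3). RELT had 16.9, 14.7 and 20.4 CPM with ATF3 siRNA, 21.2, 24.1 and 22.3 with APOE siRNA, while CXCL14 siRNA gave 11.6, 16.2 and 13.6, against 23, 21.9 and 22.7 with control siRNA. Libraries of ATF3 and CXCL14 siRNA lay below the control. RELT fell by 0.71 with CXCL14 siRNA (SE 0.125, adjusted p 0.000149) and by 0.38 with ATF3 siRNA (SE 0.123, adjusted p 0.0399, edgeR). The call with ATF3 siRNA was lost without ATF3 siRNA library 1 (0.0796) or 2 (0.169) or control library 1 (0.109), 2 (0.0792) or 3 (0.0703). TNFRSF14 (HVEM, a receptor of the lymphocyte ligand LIGHT) had 11.7, 15.7 and 15.7 CPM with ATF3 siRNA, 15.6, 16.8 and 16.3 with APOE siRNA, while CXCL14 siRNA libraries held 7.07, 6.27 and 6.28, against 12.2, 15 and 13.3 with control siRNA. The CXCL14 siRNA libraries were lowest by a wide gap. TNFRSF14 fell by 1.05 with CXCL14 siRNA (SE 0.131, adjusted p 4.41e-06, edgeR).

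TNFRSF11A (RANK), TNFRSF19 (TROY) and TNFRSF9 (CD137) were low in count. TNFRSF11A had 3.32, 3.82 and 4.9 CPM with ATF3 siRNA, 1.79, 1.75 and 2.3 with APOE siRNA, while CXCL14 siRNA gave 3.22, 2.67 and 2.35, against 3.93, 3.95 and 3.78 with control siRNA. Both APOE and CXCL14 siRNA libraries lay below the control. TNFRSF11A fell by 1.00 with APOE siRNA (SE 0.204, adjusted p 0.0008) and by 0.51 with CXCL14 siRNA (SE 0.192, adjusted p 0.0341, edgeR). The second call was lost without CXCL14 siRNA library 2 (0.0787) or 3 (0.133) or control library 1 (0.0717), 2 (0.0762) or 3 (0.0568), with library size alone (0.0592), with no filter (0.0527) and in the Wald test of DESeq2 (0.0611). TNFRSF19 had 0.691, 0.843 and 0.726 CPM with ATF3 siRNA, 0.317, 0.274 and 0.383 with APOE siRNA, while CXCL14 siRNA libraries held 0.316, 0.163 and 0.0452, against 1.33, 0.669 and 1.12 with control siRNA. The APOE and CXCL14 siRNA libraries lay below all libraries of ATF3 siRNA and control siRNA. TNFRSF19 fell by 1.67 with APOE siRNA (SE 0.44, adjusted p 0.00562) and by 2.57 with CXCL14 siRNA (SE 0.483, adjusted p 0.000269, edgeR), with 17 and 10 counts against 51. It reached the filter level in 3 libraries each of ATF3 and control siRNA and 0 of APOE and CXCL14 siRNA. TNFRSF19 was thus tested only through the groups where it was high, which limits the weight of both calls. TNFRSF9, the receptor of TNFSF9, had 0.921, 0.619 and 0.242 CPM with ATF3 siRNA, 0, 0 and 0.0638 with APOE siRNA, while CXCL14 siRNA gave 0.369, 0.0545 and 0.0452, against 0.484, 0.608 and 0.248 with control siRNA. The APOE siRNA libraries lay below the control, and those of CXCL14 siRNA overlapped it. With APOE siRNA 1 count stood against 22, a ratio of 0.0422 (95% exact interval 0.00102 to 0.261, counting error only), and the fall was called at an adjusted p of 0.00676 in edgeR. TNFRSF9 reached the filter level in 2 libraries of ATF3 siRNA, 1 of control siRNA and 0 of APOE and CXCL14 siRNA. It was thus tested only through the groups where it was higher, which limits the weight of this call. With CXCL14 siRNA 9 counts stood against 22 and the difference was not called (adjusted p 0.0949, and 0.0133 without CXCL14 siRNA library 1).

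Direct comparisons of the siRNAs tested whether a member's level differed between them. Between ATF3 and APOE siRNA 17 of 27 members differed, where 38.2% of all tested genes did. Between ATF3 and CXCL14 siRNA 17 differed, where 53.7% of all tested genes did, and between APOE and CXCL14 siRNA 14 differed, where 55.5% did. The widest differences were those of TNFSF18, which was lower with ATF3 and APOE siRNA than with CXCL14 siRNA (adjusted p 2.77e-09 and 1.25e-09 in edgeR). As given above, TNFSF18 was tested only through its CXCL14 siRNA libraries. APOE over CXCL14 siRNA, TNFSF9 differed by -1.42 ± 0.122 (adjusted p 5.84e-08) and TNFSF15 by -2.51 ± 0.158 (1.46e-09, edgeR). TNFSF10 was higher with APOE than with CXCL14 siRNA by 1.13 ± 0.126 (adjusted p 1.07e-06) and TNFRSF21 by 1.28 ± 0.07 (2.75e-10, edgeR). Both decoys were lower with ATF3 and with APOE siRNA than with CXCL14 siRNA: TNFRSF10D differed by -0.75 and -0.51 (adjusted p 5.89e-07 and 3.31e-05) and TNFRSF10C by -0.57 and -0.70 (0.0342 and 0.0125, edgeR). NGFR was higher with ATF3 siRNA than with APOE siRNA by 2.86 ± 0.369 (adjusted p 1.35e-05) and lower with APOE siRNA than with CXCL14 siRNA (-3.11 ± 0.36, adjusted p 1.78e-06, edgeR). TNFRSF1A was called in none of these 3 comparisons, with differences of 0.02 ± 0.0735 (ATF3 over APOE siRNA), -0.10 ± 0.0734 (ATF3 over CXCL14 siRNA) and -0.12 ± 0.0735 (APOE over CXCL14 siRNA). TNF did not pass between APOE and CXCL14 siRNA, at 0.49 ± 0.281 (adjusted p 0.151), although its library ranges did not overlap. TNFSF13B, called against the control with no siRNA, was higher with ATF3 siRNA than with APOE siRNA (1.59 ± 0.496, adjusted p 0.0184) and than with CXCL14 siRNA (1.59 ± 0.484, 0.0112, edgeR). The first of these was lost without ATF3 siRNA library 3 (0.0811) or APOE siRNA library 1 (0.0666) or 3 (0.0733), and the second without ATF3 siRNA library 3 (0.0579). TNFSF13B reached the filter level in 3 libraries of ATF3 siRNA, 1 of control siRNA and 0 of APOE and CXCL14 siRNA. It was thus tested only through the group where it was high, which limits the weight of both calls. The call of TNFRSF10C between ATF3 and CXCL14 siRNA was lost without ATF3 siRNA library 1 (0.155) or CXCL14 siRNA library 1 (0.0735), 2 (0.0729) or 3 (0.0597).

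Cells that express a ligand need not express its receptor, and for several ligands that changed the receptor was near the counting limit. TNFRSF18, the receptor of TNFSF18, had at most 2 counts in any library, CD27, the receptor of CD70, at most 6 and TNFRSF4, the receptor of TNFSF4, at most 2. TNFRSF9 was at 0.921 CPM or less. By contrast TNFRSF25 was at least 9.16 FPKM, TNFRSF1A at least 49.1 FPKM and TNFRSF12A at least 158 FPKM in every library. Their ligands TNFSF15, TNF and TNFSF12 were at most 1.32, 7.28 and 1.07 FPKM. The 16 members that were not tested hold 59 counts or fewer over the 12 libraries, except LTB with 61. Their highest count in a library was 17 for LTB and TNFRSF1B, both in ATF3 siRNA library 1, and 7 or fewer for TNFSF14, TNFSF8, LTA, TNFSF11, TNFRSF11B, TNFRSF13C, CD27, TNFRSF8, TNFRSF18 and TNFRSF4. No count was recorded for TNFRSF17, TNFRSF13B, TNFRSF6B and TNFSF12-TNFSF13. For TNFRSF6B this may be a matter of counting, since the gene lies wholly within RTEL1-TNFRSF6B on the same strand, which had 1186 counts. On the opposite strand CD27 overlaps CD27-AS1 (617 counts) by 6701 bases and TNFRSF17 overlaps NPIPB2 (100 counts) by 2962 bases. The strand setting is not given, so the counts of CD27 and TNFRSF17 are uncertain too. TNFRSF1B, the TNF receptor of immune cells, summed to 30 counts with ATF3 siRNA, 11 with APOE siRNA and 4 with CXCL14 siRNA, against 14 with control siRNA.

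Counts of genes downstream of the receptors stand beside 11.2% of all tested genes that rose and 9.14% that fell with ATF3 siRNA, beside 22.3% and 22.5% for APOE siRNA and beside 27.4% and 28.4% for CXCL14 siRNA, and no list was tested as a set. Of 13 death signalling adaptors and effectors, 1 rose and 4 fell with ATF3 siRNA, 0 rose and 11 fell with APOE siRNA, and 2 rose and 9 fell with CXCL14 siRNA. Their median log2 fold changes were -0.06, -0.63 and -0.39, beside 0.00, 0.01 and 0.01 over all tested genes. MLKL, which executes necroptosis, fell by 1.36 with CXCL14 siRNA (SE 0.0848, adjusted p 1.39e-09, edgeR). CFLAR, an inhibitor of caspase activation at death receptors, fell by 0.24, 0.89 and 0.69 with ATF3, APOE and CXCL14 siRNA (adjusted p 0.0136, 2.01e-08 and 1.62e-07, edgeR). RIPK1, the kinase recruited to TNFRSF1A, fell by 0.33, 0.67 and 0.39 (adjusted p 0.00227, 6.93e-07 and 9.07e-05). EDARADD, the adaptor of EDAR, fell by 0.49, 1.24 and 1.08 with ATF3, APOE and CXCL14 siRNA (adjusted p 0.0182, 3.51e-06 and 6.44e-06, edgeR). EDAR itself rose with APOE and CXCL14 siRNA and was not called with ATF3 siRNA (0.22, adjusted p 0.726, edgeR). BID, a target of caspase 8, rose by 0.42 with ATF3 siRNA (adjusted p 0.00194), and TRADD, the adaptor of TNFRSF1A, rose by 0.50 with CXCL14 siRNA (adjusted p 0.000699, edgeR).

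With the same shares of all tested genes beside them (11.2% rose and 9.14% fell with ATF3 siRNA, 22.3% and 22.5% for APOE siRNA, 27.4% and 28.4% for CXCL14 siRNA), the lists of signalling adaptors, kinases and shedding enzymes were counted. Of 16 TRAF adaptors and genes of the ubiquitin machinery, 3 rose and 4 fell with ATF3 siRNA, 2 rose and 9 fell with APOE siRNA, and 2 rose and 9 fell with CXCL14 siRNA (medians -0.10, -0.29 and -0.19). TNFAIP3 (A20), a deubiquitinase that ends NF-kB signalling, averaged 100 CPM with APOE siRNA and 96.3 CPM with CXCL14 siRNA, against 179 CPM with control siRNA (adjusted p 3.33e-06 and 8.02e-07, edgeR). BIRC3 (cIAP2), a ubiquitin ligase at the receptors, rose by 0.82 with ATF3 siRNA and fell by 0.67 with APOE siRNA (adjusted p 0.00012 and 0.000301). Of 17 kinases and NF-kB subunits, 3 rose and 2 fell with ATF3 siRNA, 2 rose and 7 fell with APOE siRNA, and 7 rose and 8 fell with CXCL14 siRNA (medians 0.05, -0.21 and -0.09). NFKB1, an NF-kB subunit, fell by 0.82 with APOE siRNA and 1.13 with CXCL14 siRNA (adjusted p 5.21e-06 and 6.97e-08, edgeR). NFKBIA, the inhibitor of NF-kB that it also induces, fell by 0.22 and 0.89 (adjusted p 0.0113 and 8.16e-09). TAB2, an adaptor of the kinase TAK1, fell by 1.13 with APOE siRNA (adjusted p 1.91e-09, edgeR). Of 6 genes of ligand and receptor shedding, 4 rose with ATF3 siRNA, 4 rose and 1 fell with APOE siRNA, and 2 rose and 2 fell with CXCL14 siRNA. ADAM17, the protease that releases TNF, was 99.4 CPM with APOE siRNA (rose) and 59.9 CPM with CXCL14 siRNA (fell), against 81.1 CPM with control siRNA (adjusted p 0.000781 and 1.16e-05, edgeR). ADAM10, a related protease, averaged 95.9 CPM with APOE siRNA and 52.4 CPM with CXCL14 siRNA, against 162 CPM with control siRNA (adjusted p 2.79e-06 and 3.03e-10).

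Of 15 tested genes that TNF can induce, 6 rose and 0 fell with ATF3 siRNA, 1 rose and 9 fell with APOE siRNA, and 4 rose and 10 fell with CXCL14 siRNA (medians 0.40, -0.64 and -1.10), where 11.2% of all tested genes rose and 9.14% fell with ATF3 siRNA, 22.3% and 22.5% did so for APOE siRNA, and 27.4% and 28.4% for CXCL14 siRNA. CXCL10, a chemokine for T cells, averaged 20.8 CPM with ATF3 siRNA, 3.48 with APOE siRNA and 3.19 with CXCL14 siRNA, against 8.24 with control siRNA (adjusted p 5.57e-05, 0.000113 and 2.35e-05, edgeR). IL1B averaged 237 CPM with ATF3 siRNA, 133 with APOE siRNA and 59.9 with CXCL14 siRNA, against 180 with control siRNA (adjusted p 0.0144, 0.00362 and 4.77e-09). IL6 rose with CXCL14 siRNA, at 1.94 CPM against 0.305 CPM with control siRNA (2.64 ± 0.514, adjusted p 0.000372, edgeR), and was 1.63 CPM with ATF3 siRNA (2.42 ± 0.525, adjusted p 0.00418). TNF itself stood in these groups as given above: among control values with ATF3 siRNA and below them with APOE and CXCL14 siRNA. Of family genes whose names fall outside the rule, FAS, EDA and EDA2R were tested and FASLG and CD40LG were not. EDA2R, a second receptor of ectodysplasin, averaged 7.4 CPM with ATF3 siRNA, 13 with APOE siRNA and 21.1 with CXCL14 siRNA, against 5.15 with control siRNA, and rose in all 3 (adjusted p 0.0322, 3.24e-06 and 8.83e-09, edgeR). FAS, a death receptor, rose by 0.24 ± 0.08 with CXCL14 siRNA (adjusted p 0.0179).

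**Figure D5:**
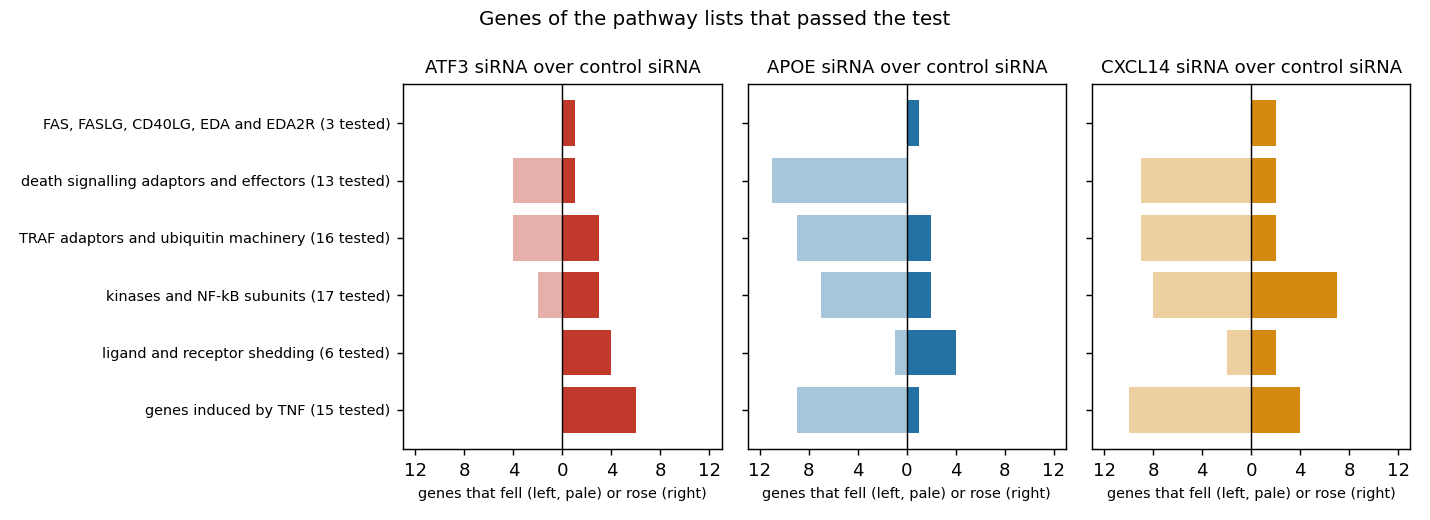
Number of genes of each pathway list that rose (solid, to the right of 0) or fell (pale, to the left) at an adjusted p under 0.05 in edgeR, for ATF3, APOE and CXCL14 siRNA over control siRNA; the number tested stands beside each list. Of the 13 death signalling genes 11 fell with APOE siRNA and 9 with CXCL14 siRNA, and of the 15 genes that TNF can induce 6 rose with ATF3 siRNA and 10 fell with CXCL14 siRNA. Over all tested genes 22.5% fell with APOE siRNA, 28.4% fell with CXCL14 siRNA and 11.2% rose with ATF3 siRNA, and no list was tested as a set.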

How the data were processed

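Gene counts and FPKM values of 12 libraries were used as deposited. The authors aligned reads with HISAT2 2.0.5 to build hg38 and counted them per gene with featureCounts 1.5.0-p3, per the submitters' processing notes, and the deposited counts are not normalized. The deposited FPKM are scaled by the authors to gene length and depth. The annotation and the strand setting are not given in the sources used here, and the labels' protocol names both directional and non-directional libraries.

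The 14920 genes kept by filterByExpr (about 10 counts, 0.567 CPM in the median library, in at least 3 libraries) were scaled by TMM and tested with the quasi-likelihood test of edgeR 4.0.16 in R 4.3.3. All 4 groups entered 1 fit, with the siRNA as the only term, and p-values were adjusted over all genes by Benjamini-Hochberg within each comparison. CPM are counts divided by TMM-scaled library sizes. The SE is the log2 fold change over the root of its F statistic. Ratios of low counts carry 95% exact binomial intervals, which cover counting error only. The fit was tested on simulated data. Alternatives were DESeq2 1.42.0 (size factors and Wald test), limma 3.58.1 (voom), library size alone, no filter, a filter at 1 CPM and a mean count of 50, only the groups compared, a replicate block and each library left out. The members, the pathway lists and the marker lists were chosen with earlier results of these data known. Every tested member is named, and of each pathway list up to 3 called genes per comparison with the lowest adjusted p. EDARADD and TRADD, and the values of a listed gene in its other comparisons, were added after their values were seen. Sequences came from RefSeq GRCh38.p14 tables, matched by symbol.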

Additional observations from a re-analysis of the deposited data

How the results depend on the processing

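No called member changed direction under any alternative run. With ATF3 siRNA against control siRNA the count of called members was 12, against 7 with only the groups compared and 4 to 9 with 1 library left out, the lowest without control library 2. With only the groups compared, TNFSF18 and CD70 did not pass the filter for ATF3 siRNA against control siRNA, so part of that drop is members not tested. The stricter filter, which tests 11518 genes and 17 of the 27 members, called 11 members with APOE siRNA against control siRNA (18 in the main analysis) and 9 between ATF3 and CXCL14 siRNA (17). Calls that held in every alternative that tested the member numbered 4 of 12 with ATF3 siRNA, 12 of 18 with APOE siRNA and 15 of 16 with CXCL14 siRNA. Some of these members were not tested in all 14 alternatives: TNFSF18, TNFRSF9, EDAR, TNFRSF19, CD70 and TNFRSF10C fail the stricter filter. Against control siRNA, TNFSF18 with ATF3 and APOE siRNA and TNFRSF9 with APOE siRNA also failed the filter with only the groups compared. These calls were tested in 12 alternatives. Scaled by library size alone, the share of called genes that rose was 44.0% (55.2% with TMM) for ATF3 siRNA against control, 41.5% (52.9%) for ATF3 against CXCL14 siRNA and 39.6% (52.0%) for APOE against CXCL14 siRNA, and the median of all genes shifted by -0.10 and -0.12 in the last 2. The cause was not tested. With a replicate block 14, 17 and 18 members were called with ATF3, APOE and CXCL14 siRNA against control siRNA, and over all genes 4138, 7436 and 8970, against 3041, 6681 and 8327 without it. The numbers were not taken as pairing the libraries: deviations of same-numbered libraries correlated at -0.021 to 0.234, with 11 of 18 pairs over 0.1, although 11 of 12 libraries correlated best with their own number, a hint from the data only. Depth limits the members under about 1 CPM, such as CD70, TNFSF18 and TNFRSF9, whose groups rest on few counts.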
